A study of Mus musculus with 18 samples.

Results

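Genes of renin cells and pericytes were measured in cultured fetal mouse kidneys, as 8 genes chosen by symbol: Ren1, Akr1b7, Pdgfrb, Cspg4, Mcam, Rgs5, Kcnj8 and Abcc9. All 8 were found in the table of 78317 genes, each in a single row, and all 8 passed the filter on low counts that left 16544 genes for testing. The animals were wild-type CD1 mice at embryonic day 14. Their kidneys were exposed for 4 hours to AAV2, a viral vector, then embedded in a gel of collagen I and Matrigel and cultured for 72 hours. All 3 vectors expressed mCherry, a red fluorescent reporter, from the broadly active CAG promoter, followed by a pair of microRNA-30-based short hairpin RNA cassettes. Mylk-shRNA was aimed at Mylk, which encodes myosin light chain kinase. Rock1/2-shRNA was aimed at Rock1 and Rock2. In scramble-shRNA, the control, the Rock1 and Rock2 target sequences were randomly rearranged. After culture the kidneys of a condition were pooled, digested for 30 minutes and sorted by mCherry signal, with the top 25% of cells kept as the positive fraction and the bottom 50% as the negative fraction. The 3 vectors and 2 fractions give 6 groups, each with 3 libraries from litters 1, 2 and 3, and so 9 cultures (vector by litter) that each gave a positive and a negative library. Every group was therefore transduced, and the cells of the negative fraction came from the same transduced kidneys.

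Renin is the protease that cuts angiotensinogen and so starts the renin-angiotensin cascade that sets blood pressure and salt balance. In the adult kidney it is made by juxtaglomerular cells beside the glomerulus, but in the fetal kidney renin cells lie along the growing arteries, and they arise from Foxd1-expressing stromal progenitors, as do vascular smooth muscle cells, mesangial cells and pericytes. Pericytes wrap capillaries; endothelial cells recruit them by releasing PDGF-B, which acts on the receptor encoded by Pdgfrb. Renin transcription is driven by cyclic AMP, and RBP-J, the transcription factor at the end of the Notch pathway, acts on the renin gene.

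Stretches of DNA before the start sites of 4 members are shown, because the 2 renin cell genes differed most between the sorted fractions, and because the 2 potassium channel genes encode parts of one channel and are described together below. They are from RefSeq on build GRCm38.p6, not the GRCm39 build of the expression table. They are read 5′ to 3′ on the gene's own strand, and they leave out bases annotated as untranslated region by GENCODE except for the Ren1 stretch of 30 bases. Capitals mark matches on either strand to 5 motifs. The TATA box was searched as TATAAA, the core of a cyclic AMP response element as TGACG and the RBP-J core as TGGGAA. The others were CCAAT and the CArG box of serum response factor. Ren1 lies on the plus strand at chr1:133350633-133350662, Akr1b7 on the plus strand at chr6:34412112-34412333, Kcnj8 on the minus strand at chr6:142571615-142571864 and Abcc9 on the minus strand at chr6:142702316-142702524.
Ren1: atacatggtgtgTATAAAagaaggctcagg
Akr1b7: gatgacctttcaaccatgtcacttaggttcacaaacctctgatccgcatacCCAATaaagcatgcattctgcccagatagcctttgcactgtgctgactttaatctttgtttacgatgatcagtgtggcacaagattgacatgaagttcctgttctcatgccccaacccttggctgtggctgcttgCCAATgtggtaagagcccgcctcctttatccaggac
Kcnj8: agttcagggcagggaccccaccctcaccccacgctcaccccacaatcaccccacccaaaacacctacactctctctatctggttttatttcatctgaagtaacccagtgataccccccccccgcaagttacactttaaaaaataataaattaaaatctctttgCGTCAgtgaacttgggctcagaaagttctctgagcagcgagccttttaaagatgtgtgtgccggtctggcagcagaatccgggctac
Abcc9: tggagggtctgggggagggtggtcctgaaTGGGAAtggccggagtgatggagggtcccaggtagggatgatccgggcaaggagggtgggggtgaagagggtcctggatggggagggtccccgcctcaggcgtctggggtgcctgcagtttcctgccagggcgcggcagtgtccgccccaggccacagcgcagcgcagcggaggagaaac

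The search covered the 250 bases before the start of 7 of the 8 members and of all 32851 windows in the RefSeq table; Pdgfrb was not matched. Ren1 was the only one of the 7 with TATAAA, which starts 29 bases before its start site and which 12.4% of all windows hold. Akr1b7 holds CCAAT at 2 places and Rgs5 at 1, against 33.8% of all windows. TGACG lies in the windows of Kcnj8 and Mcam (17.8% of all windows), and in Mcam its 2 matches overlap on opposite strands. TGGGAA lies in the window of Abcc9 (21.6%), and the CArG box in none of the 7 (1.47%). These matches describe letters and do not show that a factor binds.

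Library totals ran from 3121624 to 12170830 counts, with a median of 7581392. Litter 3 had a mitochondrial share of 3.95 to 9.16% of counts, against 2.01 to 4.02% in litters 1 and 2. The targeted genes were not lower beyond the spread. Relative to the scramble-shRNA positive libraries, Mylk differed by -0.19 (log2; 95% interval -0.49 to 0.11) under Mylk-shRNA, and under Rock1/2-shRNA the differences were -0.09 (-0.38 to 0.21) for Rock1 and -0.17 (-0.50 to 0.15) for Rock2, all with an adjusted p of 1.00 (edgeR). In bulk samples, fewer cells of a type and less RNA per cell cannot be told apart. Values below are in CPM, a count divided by the library's total and scaled by a constant. They are not scaled by gene length, so levels are compared between samples and not between genes.

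The positive fraction was compared with the negative fraction to ask which members differed between cells with high and low reporter signal. Averaged over the 3 vectors, 4 of the 8 members were higher in the positive fraction and 0 were lower: the 2 renin cell genes, Akr1b7 (6.34-fold, 95% interval 4.54 to 8.86) and Ren1 (2.27-fold, 1.43 to 3.58), and the pericyte surface genes Pdgfrb (1.56-fold, 1.37 to 1.76) and Cspg4 (1.44-fold, 1.23 to 1.69). Across all genes tested, 33.6% passed the threshold (an adjusted p below 0.05 by edgeR's quasi-likelihood test) and 17.6% passed it as higher. The median log2 difference of the 8 members was 0.37, beside -0.03 for all genes. The members were chosen with earlier results of these data known, so these counts and medians describe them and do not test them as a set. The other 4 members, Mcam, Kcnj8, Rgs5 and Abcc9, did not pass in this model. It has no litter term and treats the cultures of a litter as separate. Leaving out litter 1 or litter 2 kept 3 calls (Akr1b7, Pdgfrb and Cspg4), and leaving out litter 3 gave 5, with Mcam added. The calls over all genes moved the same way. They went from 5558 to 2805 without litter 1, 2766 without litter 2 and 6334 without litter 3. With litter as a replicate block 6 members passed, as Kcnj8 was added as higher and Abcc9 as lower. Under that block the calls over all genes stayed within 1.5 times of 5558.

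**Figure D1:**
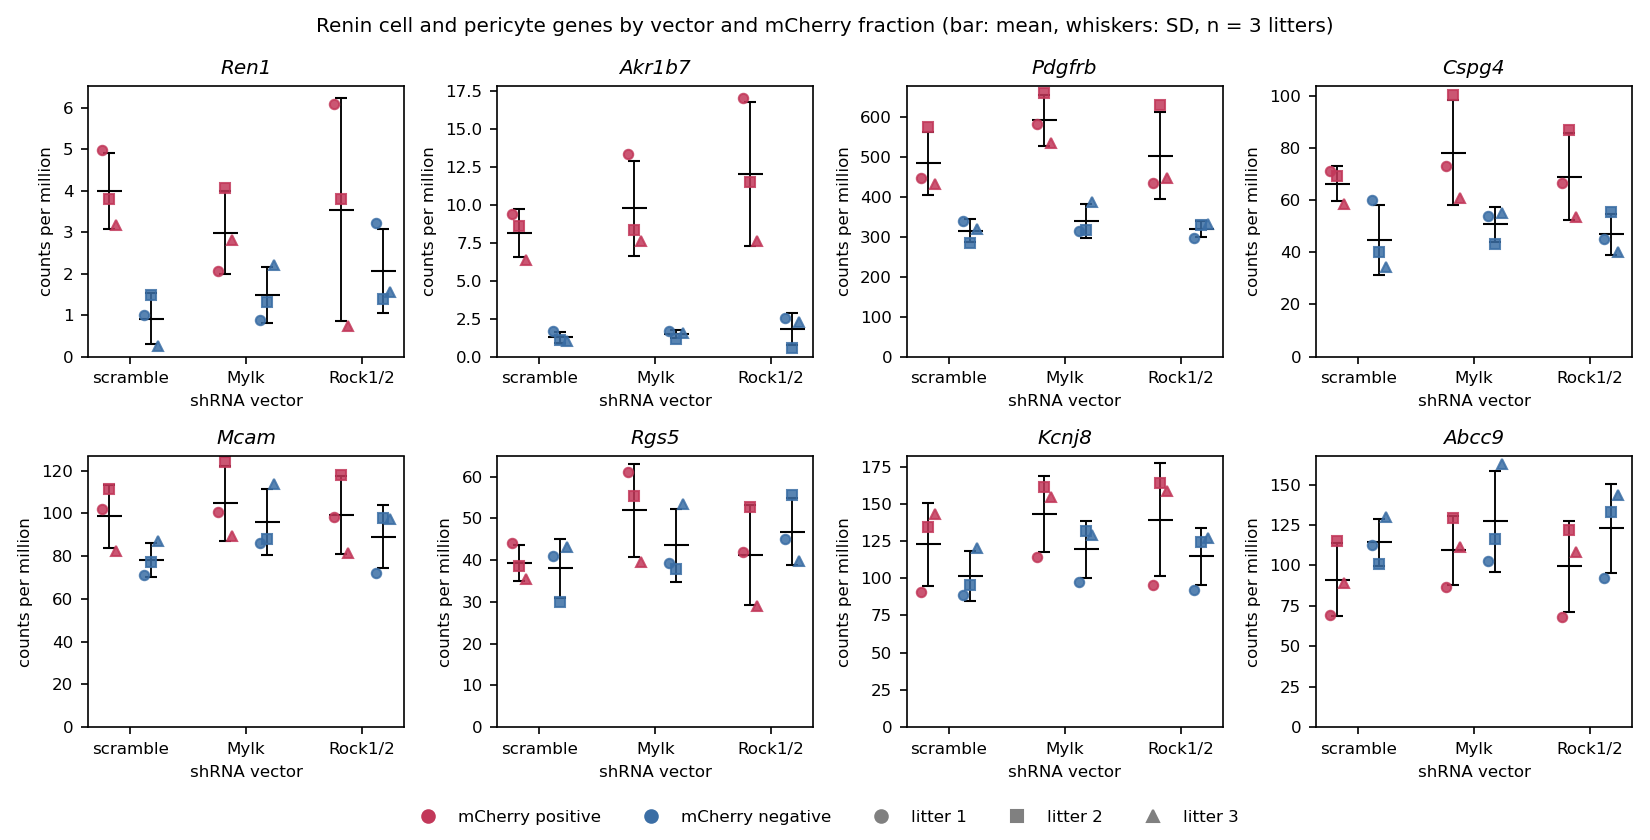
Level of each of the 8 genes (vertical axes, CPM, from 0) by vector (horizontal axes) and mCherry fraction (red positive, blue negative); each point is 1 library, its shape gives the litter, and bars and whiskers are the mean and SD of 3 litters. Akr1b7 and Pdgfrb were higher in all 9 positive libraries than in any negative library, while the fractions of Rgs5 overlapped for every vector.

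Akr1b7 encodes an aldose reductase-like enzyme that marks renin cells. With scramble-shRNA its level in litters 1, 2 and 3 was 9.41, 8.59 and 6.34 CPM in the positive fraction and 1.67, 1.07 and 1.03 CPM in the negative fraction. With Mylk-shRNA the positive libraries had 13.4, 8.34 and 7.61 CPM and the negative ones 1.68, 1.16 and 1.55 CPM. With Rock1/2-shRNA the positive libraries had 16.98, 11.5 and 7.59 CPM and the negative ones 2.52, 0.576 and 2.28 CPM. Litter 1 was the highest of the positive libraries under each vector, and no negative library reached the lowest positive one. The mean was 9.97 ± 3.39 CPM in the positive and 1.504 ± 0.622 CPM in the negative fraction (SD, n = 9 libraries each, from 3 litters). The ratio within a culture ran from 3.33 to 19.9 with a median of 6.73. The log2 difference was 2.67 ± 0.23 (SE; edgeR adjusted p = 4.38e-08). It was 2.63 with scramble-shRNA (adjusted p = 0.000253), 2.73 with Mylk-shRNA (0.000111) and 2.64 with Rock1/2-shRNA (0.000130), so each vector passed on its own. These levels rest on 4 to 29 counts in the negative and 20 to 129 counts in the positive libraries.

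Ren1 encodes renin itself and was scarce, with 1 to 37 counts in a library. With scramble-shRNA its level in litters 1, 2 and 3 was 4.97, 3.81 and 3.17 CPM in the positive fraction and 1.01, 1.48 and 0.257 CPM in the negative fraction, with no overlap. With Mylk-shRNA it was 2.07, 4.05 and 2.82 CPM in the positive and 0.883, 1.33 and 2.21 CPM in the negative libraries. With Rock1/2-shRNA it was 6.09, 3.79 and 0.735 CPM in the positive and 3.22, 1.38 and 1.57 CPM in the negative libraries. Under both knockdown vectors the fractions overlapped, and the Rock1/2-shRNA culture of litter 3 was the only 1 of the 9 cultures in which the positive library was the lower. The averaged log2 difference was 1.18 ± 0.32 (edgeR adjusted p = 0.00657), but it missed the threshold without litter 1 (1.11, adjusted p = 0.0815) and without litter 2 (1.16, adjusted p = 0.125). By vector it was 1.89 ± 0.55 with scramble-shRNA (adjusted p = 0.0282), 1.00 ± 0.56 with Mylk-shRNA (0.277) and 0.65 ± 0.52 with Rock1/2-shRNA (0.525). The scramble-shRNA call was lost on leaving out litter 1 (adjusted p = 0.271), litter 2 (0.201), the positive library of litter 1 (0.106) or 2 (0.0741), or the negative library of litter 1 (0.100) or 3 (0.0615). In these settings the log2 difference was 1.65 to 2.42, with fewer libraries fitted. The vectors were not shown to differ, as the difference of the fraction effect from scramble-shRNA was -0.89 (95% interval -2.55 to 0.76) for Mylk-shRNA and -1.24 (-2.83 to 0.36) for Rock1/2-shRNA. Some mouse strains carry a near-identical second renin gene, Ren2, which was not analysed here; reads from it could fall on Ren1.

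Among the pericyte genes, Pdgfrb encodes the PDGF receptor beta, through which pericytes are recruited. Its level with scramble-shRNA was 446, 575 and 432 CPM in the positive and 340, 283 and 320 CPM in the negative fraction. With Mylk-shRNA it was 581, 659 and 534 CPM against 314, 316 and 388 CPM. With Rock1/2-shRNA it was 433, 629 and 446 CPM against 298, 330 and 332 CPM. All 9 positive libraries lay above all 9 negative ones, and litter 2 gave the highest positive value under each vector. The log2 difference was 0.64 ± 0.08 (SE; edgeR adjusted p = 9.49e-06). By vector it was 0.57 with scramble-shRNA (adjusted p = 0.0134), 0.73 with Mylk-shRNA (0.00216) and 0.60 with Rock1/2-shRNA (0.0104). Leaving out litter 1 ended the call for each single vector (adjusted p = 0.101, 0.103 and 0.111 in that order), and leaving out litter 2 ended it for scramble-shRNA (0.285) and Rock1/2-shRNA (0.188). Single libraries also decided the call. Without the positive or the negative scramble-shRNA library of litter 2 the adjusted p was 0.102 and 0.0801. Without the Rock1/2-shRNA positive library of litter 2 or negative library of litter 1 it was 0.0866 and 0.0524. Where a call was lost, the log2 difference was still 0.364 to 0.678, with fewer libraries fitted. In RefSeq the gene next to Pdgfrb is Csf1r, the macrophage growth factor receptor, which was 23.0-fold higher in the positive fraction. The mean of Csf1r was 25.2 CPM in the positive and 1.15 CPM in the negative libraries, and that of Pdgfrb 526 and 324 CPM. Whether reads were shared between these neighbours was not tested.

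Cspg4 encodes the proteoglycan NG2 on the pericyte surface. Its positive libraries ran from 53.6 to 100.3 CPM with a median of 69.4, and its negative libraries from 34.4 to 60.1 CPM with a median of 45.1. The ranges overlapped over all libraries, yet the positive library was the higher in 9 of 9 cultures, by 1.11 to 2.33 times. The log2 difference was 0.53 ± 0.11 (edgeR adjusted p = 0.000849). No single vector passed (adjusted p = 0.0861 with scramble-shRNA, 0.0583 with Mylk-shRNA and 0.0869 with Rock1/2-shRNA). With litter as a replicate block all 3 did, at 0.0279, 0.0172 and 0.0265. The scramble-shRNA difference also passed without the negative library of litter 1 (adjusted p = 0.0183). The Mylk-shRNA difference also passed without litter 3 (0.0189), without its positive library (0.0374), by DESeq2 (0.0483) and with no filter on low counts (0.0096).

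The surface gene Mcam and the signalling gene Rgs5 did not pass. Mcam, an adhesion molecule also known as CD146 that endothelial cells carry too, ran from 81.5 to 124 CPM in the positive and 71.1 to 114 CPM in the negative libraries. The positive library was the higher in 6 of 9 cultures, and the 3 in which it was not all came from litter 3. Its log2 difference was 0.15 (95% interval -0.04 to 0.35; edgeR adjusted p = 0.231), and 0.36 without litter 3 (adjusted p = 0.00299), when scramble-shRNA alone also passed (0.49, adjusted p = 0.0258). Rgs5, a regulator of G-protein signalling and a common pericyte marker, ran from 28.9 to 61.1 CPM in the positive and 29.9 to 55.7 CPM in the negative libraries. It was higher in the positive library of 4 of 9 cultures, and its log2 difference of 0.01 had a 95% interval from -0.24 to 0.25 (adjusted p = 0.974), so that a change of more than 1.19-fold upwards lies outside the interval. Without litter 3 it passed with Mylk-shRNA alone (0.51, adjusted p = 0.0376).

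Taken by vector, 3 members were called with scramble-shRNA (Akr1b7, Ren1 and Pdgfrb), where 12.3% of genes were called and 7.43% were called higher. With Mylk-shRNA 2 were called (Akr1b7 and Pdgfrb; background 13.2%, higher 8.07%), and with Rock1/2-shRNA the same 2 (background 11.2%, higher 6.94%). All were higher in the positive fraction.

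**Figure D2:**
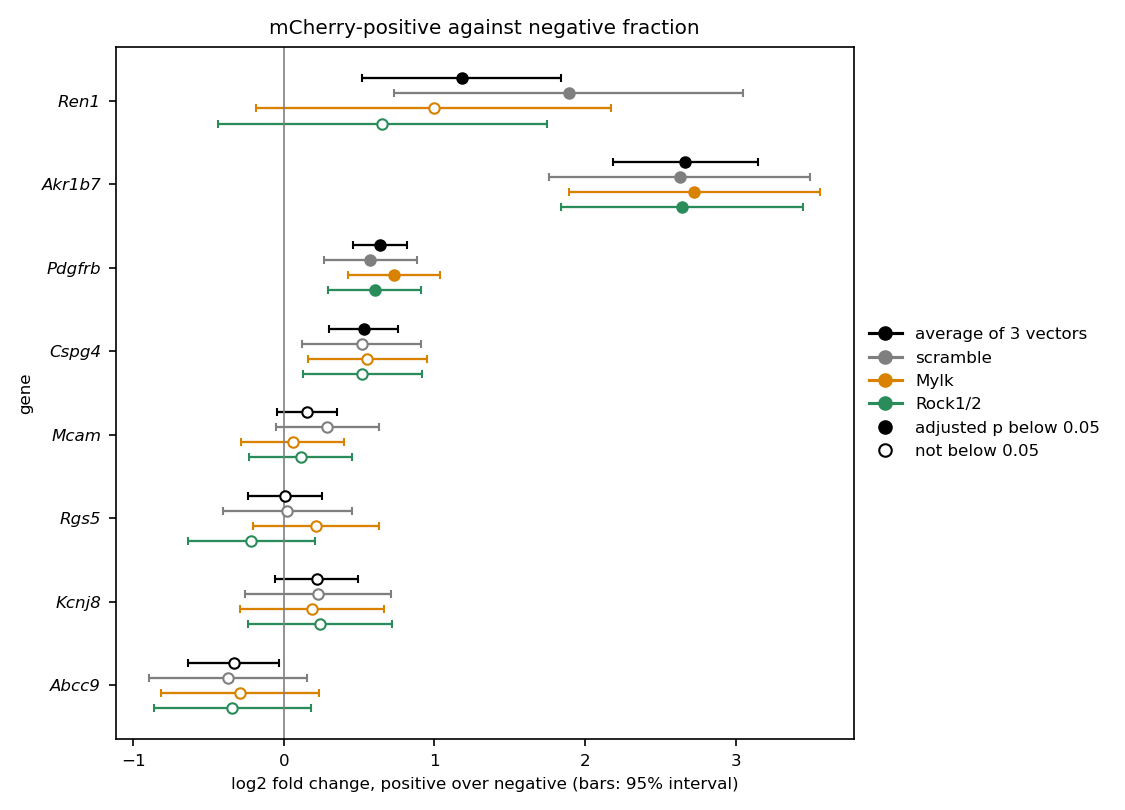
Log2 fold change of the positive over the negative fraction (horizontal axis) for each gene (vertical axis), averaged over the vectors (black) and for each vector; bars are 95% intervals and filled points passed an adjusted p of 0.05. Akr1b7 lies at 2.63 to 2.73 under every vector, Ren1 falls from 1.89 to 0.65 with wide intervals, and Abcc9 is the only gene below 0 in all 4 estimates.

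Kcnj8 and Abcc9 encode the 2 parts of one ATP-sensitive potassium channel of mural cells: Kcnj8 the pore, Kir6.1, and Abcc9 the sulfonylurea receptor SUR2 around it. RefSeq lists them as neighbours on the same chromosome. Kcnj8 in litters 1, 2 and 3 was 91.1, 135 and 143 CPM in the positive and 89.0, 95.2 and 120 CPM in the negative fraction with scramble-shRNA. With Mylk-shRNA it was 114, 161 and 154 CPM against 97.6, 132 and 129 CPM, and with Rock1/2-shRNA 95.6, 164 and 158 CPM against 92.4, 125 and 127 CPM. Litter 1 was the lowest in every group, and the positive library was the higher in 9 of 9 cultures, by 1.02 to 1.41 times. Abcc9 with scramble-shRNA was 69.4, 115 and 89.4 CPM in the positive and 113, 101 and 130 CPM in the negative fraction. With Mylk-shRNA it was 86.9, 130 and 111 CPM against 103, 116 and 163 CPM, and with Rock1/2-shRNA 68.1, 122 and 108 CPM against 92.0, 133 and 144 CPM. The positive library was the lower in 7 cultures, and the other 2 both came from litter 2.

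Neither subunit passed the averaged test: the log2 difference was 0.22 (95% interval -0.06 to 0.50; edgeR adjusted p = 0.222) for Kcnj8 and -0.33 (-0.64 to -0.03; adjusted p = 0.0838) for Abcc9. With litter as a replicate block both passed, in opposite directions, at 0.21 (adjusted p = 0.00396) for Kcnj8 and -0.34 (adjusted p = 0.00226) for Abcc9. Abcc9 also passed by DESeq2 (-0.34, adjusted p = 0.0497), with no filter on low counts (-0.34, 0.00271), without the scramble-shRNA positive library of litter 2 (-0.40, 0.0421) and without the Rock1/2-shRNA negative library of litter 1 (-0.39, 0.0394). The ratio of Kcnj8 to Abcc9 in a library was 1.36 ± 0.12 (range 1.17 to 1.60) in the positive and 0.93 ± 0.11 (0.79 to 1.13) in the negative fraction (SD, n = 9 each), with no overlap. Its log2 was higher in the positive library of 9 of 9 cultures, by 0.55 ± 0.23 (SD), with an exact two-sided sign-flip p = 0.00391, the smallest that 512 sign flips can give. This ratio was chosen after the values were seen, so its p-value describes the pattern and does not test it. The sign flips also treat the 9 cultures as separate units, although they come from 3 litters and are not independent. The mean difference was 0.56 in litter 1, 0.32 in litter 2 and 0.77 in litter 3. The ratio compares fractions and, without gene lengths, says nothing of how many subunits of each kind a cell makes.

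**Figure D3:**
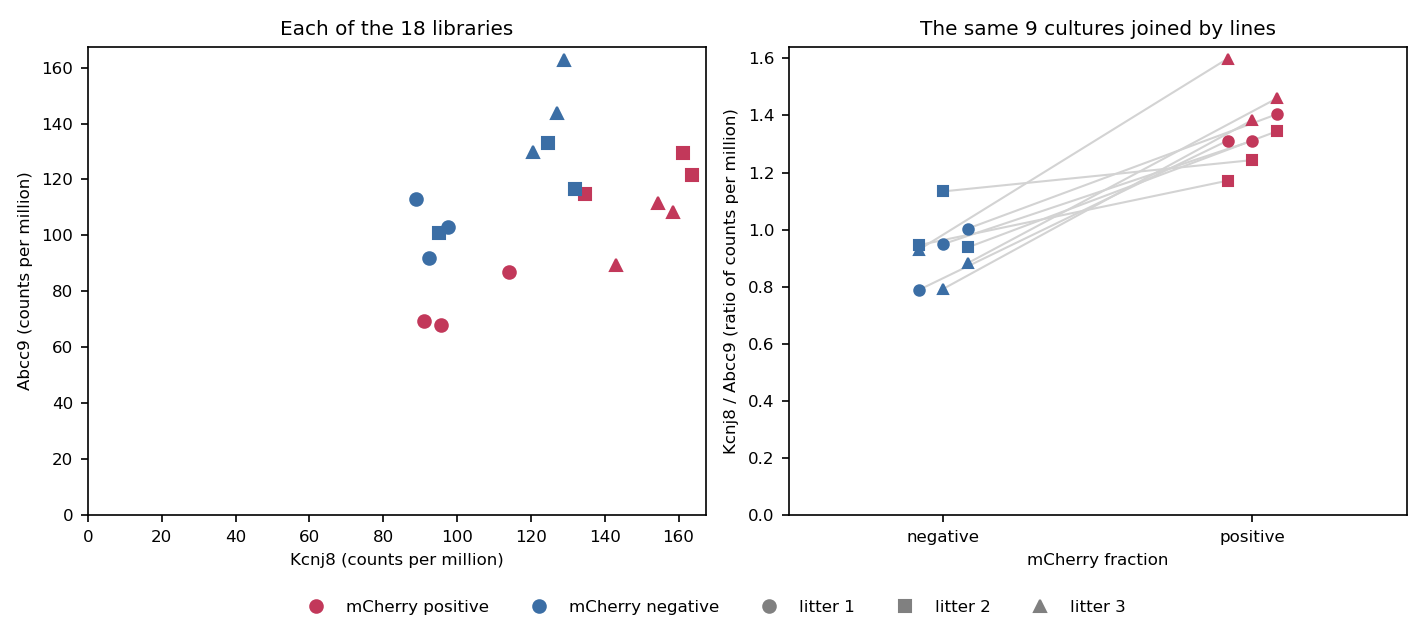
Left, Abcc9 (vertical axis, CPM) against Kcnj8 (horizontal axis, CPM) in the 18 libraries; right, the ratio of Kcnj8 to Abcc9 (vertical axis) in the negative and positive fraction (horizontal axis), with a line joining the 2 libraries of each of the 9 cultures. All 9 lines go up, from 0.79 to 1.13 in the negative to 1.17 to 1.60 in the positive libraries.

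Within groups the 2 subunits varied together. After each group's mean was removed, Pearson's r of Kcnj8 and Abcc9 over the 18 libraries was 0.89, the highest of the 28 pairs of members, followed by Pdgfrb with Abcc9 (0.77) and Pdgfrb with Mcam (0.74). Deviations of the same litter move together, so these values describe litters as much as genes. The same measure was used to find the genes whose deviations were most like each member's, out of 10870 named genes whose average was 5 CPM or more. Each r below is the highest of that many values and so is large by selection. The closest was Mmrn2 for Abcc9 (r = 0.96), Iqgap1 for Cspg4 (0.94), Apba1 for Rgs5 (0.93), Gpam for Pdgfrb (0.93), Ecscr for Mcam (0.91), Mbtd1 for Kcnj8 (0.91), Mapk7 for Akr1b7 (0.86) and Tvp23a for Ren1 (0.82). With group means kept, r in the same order was 0.91, 0.92, 0.34, 0.01, 0.39, 0.03, -0.18 and 0.71, so several pairs were alike in their deviations only. Mmrn2 and Ecscr are known as endothelial genes, and what links them to Abcc9 and Mcam was not tested.

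The vectors were compared within each fraction to ask whether the knockdown cassettes changed the members. In all 6 comparisons between vectors 0 of the 8 members passed, and 0% of all genes did (edgeR). An unadjusted p below 0.05 was found for 121 to 285 of the 16544 genes. That is a smaller share than the 0.05 expected where nothing differs. These tests, from a model without a litter term, were therefore conservative, and 0 calls do not show that the vectors had no effect. DESeq2 and litter as a replicate block also called 0. Among positive libraries, Mylk-shRNA against its scramble-shRNA control ranged from -0.51 (95% interval -1.60 to 0.59) for Ren1 to 0.39 (-0.04 to 0.82) for Rgs5. Rock1/2-shRNA against scramble-shRNA ranged from -0.23 for Ren1 to 0.52 (-0.21 to 1.24) for Akr1b7. In the negative fraction all 8 members had a value above 0 against scramble-shRNA under both knockdown vectors, from 0.11 (Pdgfrb) to 0.39 (Ren1) with Mylk-shRNA and from 0.02 (Pdgfrb) to 1.01 (Ren1; -0.16 to 2.18) with Rock1/2-shRNA. The 2 comparisons share their scramble-shRNA libraries. Mylk-shRNA against Rock1/2-shRNA ranged from -0.28 (Ren1) to 0.32 (Rgs5) in the positive and from -0.62 (Ren1) to 0.11 (Cspg4) in the negative fraction. For the 3 tests of whether the fraction effect differed between vectors, again 0 members and 0% of genes passed. The intervals of Pdgfrb were the narrower ones, at -0.04 to 0.58 for Mylk-shRNA and -0.25 to 0.36 for Rock1/2-shRNA in the positive libraries, while those of Ren1 allow changes of more than 2-fold.

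**Figure D4:**
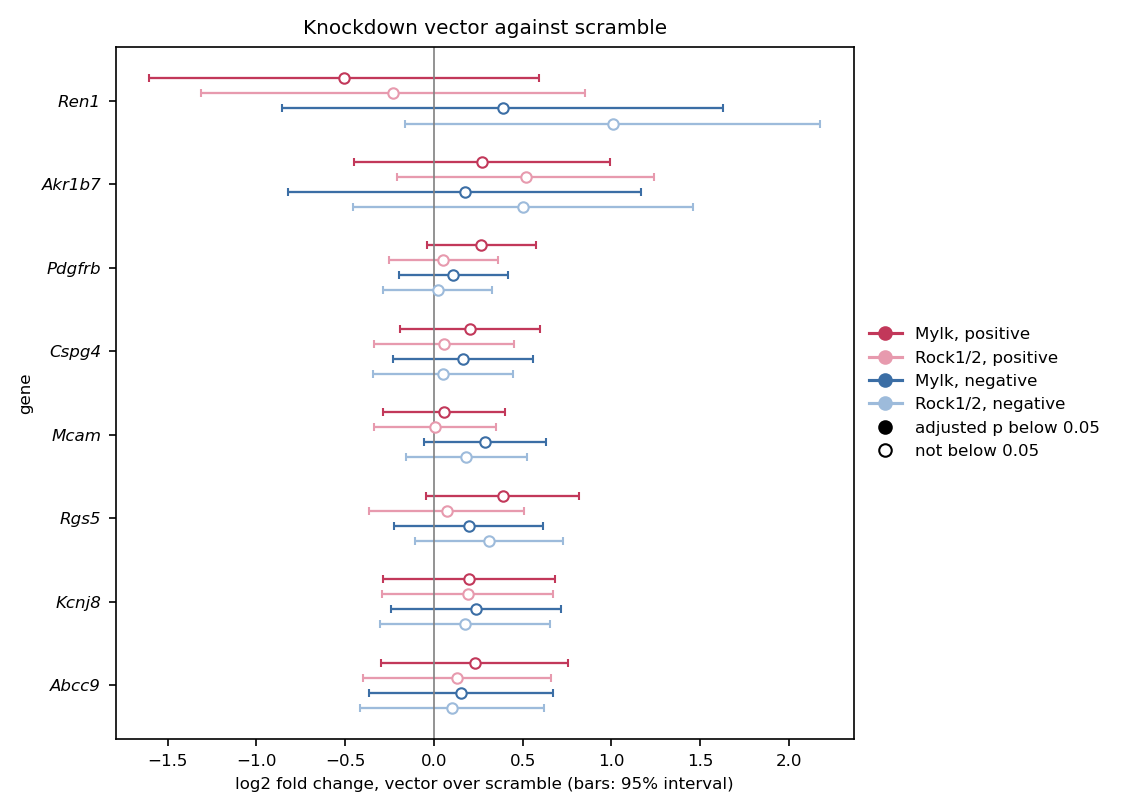
Log2 fold change of each knockdown vector over scramble-shRNA (horizontal axis) for each gene (vertical axis), in the positive (red) and negative (blue) fraction; bars are 95% intervals, and open points did not pass an adjusted p of 0.05. Every point is open, and the widest intervals belong to Ren1.

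Other genes of the renin-angiotensin system were higher in the positive fraction in most cases: of 14 genes, 12 were tested, 8 were higher (Ren1 among them) and 1 was lower, with a median log2 difference of 0.62. The background for this list and those below is the averaged comparison over all genes tested, which called 33.6%, and 17.6% as higher. These lists too were chosen with earlier results known. Angiotensinogen (Agt), the substrate of renin, was 6.94-fold higher (edgeR adjusted p = 9.75e-06), the angiotensin receptor gene Agtr1a 2.58-fold (1.09e-06) and the aspartic protease gene Ctsd 2.31-fold (3.79e-10). Agt was scarce, with at most 35 counts in a library and a mean of 0.378 CPM in the negative fraction. Enpep, which encodes aminopeptidase A, was the 1 lower gene (log2 -0.23, adjusted p = 0.0144; named after its value was seen). Among 20 signalling genes and regulators of renin cells, 10 were higher and 1 lower, with a median of 0.14. Foxd1, the marker of the stromal progenitors, was higher by 1.43 on the log2 scale (1.43e-08), Tbx18, a mural progenitor factor, 2.46-fold (2.69e-08), Ptger4, a prostaglandin E2 receptor, 1.91-fold (5.00e-06) and Nfix, a transcription factor, 1.86-fold (2.83e-07).

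Further genes of pericytes and mural cells split: of 20, 17 were tested, with 10 higher, 3 lower and a median log2 difference of 0.42. Of all genes, 33.6% were called and 17.6% were called higher. The transcription factor gene Ebf1 was 2.36-fold higher (edgeR adjusted p = 5.55e-09). Lower were Ndufa4l2 (log2 -1.10, adjusted p = 1.71e-07) and Cox4i2 (-0.79, 7.43e-08), which encode alternative subunits of mitochondrial complexes and are common pericyte markers. The markers Vtn and Higd1b did not pass the filter, with at most 3 and 13 counts in a library. Of 24 ligands and receptors of pericyte recruitment, 11 were higher and 6 lower (median 0.25). The chemokine gene Cxcl12 was 4.44-fold higher (7.69e-10), Angpt2, a ligand of the endothelial receptor Tie2, 2.71-fold (1.54e-08) and Tgfb2 2.39-fold (1.75e-09), while Pdgfa was lower (log2 -1.22, 2.02e-07). For the receptor of Pdgfrb's pathway, its main ligand gene Pdgfb was lower (-0.50, 0.0178) and Pdgfd higher (0.57, 0.00145); both were named after their values were seen.

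Relatives of the members gave these values, again beside 33.6% of all genes called and 17.6% called higher. Of the 4 ATP-sensitive channel genes, 3 were tested and 0 passed; the third, Abcc8, was at -0.30 (edgeR adjusted p = 0.496), and Kcnj11 had at most 6 counts in a library. Of the 4 aldose reductase-like genes, Akr1b7 and Akr1b1 (log2 0.30, adjusted p = 0.0113) were higher, while Akr1b8 (0.01, 0.954) and Akr1b10 (0.29, 0.190) did not pass. Among 6 tested of 10 R4 regulators of G-protein signalling, 3 were higher, namely Rgs1 (5.15, 1.70e-07), Rgs2 (0.71, 0.000257) and Rgs3 (0.41, 0.00231); Rgs4 (-0.07, 0.888), Rgs16 (0.46, 0.308) and Rgs5 did not pass. Rgs1, known chiefly from immune cells, had 0 counts in 4 libraries and at most 53 in a library.

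Marker lists of other cells moved with the same sort, beside a background of 33.6% of all genes called and 17.6% called higher. All 9 macrophage genes were higher in the positive fraction (median log2 5.85), with a summed level of 168 to 373 CPM against 6.08 to 13.1 CPM. Smooth muscle genes were higher in 10 and lower in 2 of 12 (summed 607 to 1290 CPM against 309 to 444 CPM; Mylk 2.58-fold, Acta2 4.49-fold, Myh11 8.02-fold and Smtn 1.63-fold higher). Stromal genes were higher in 12 and lower in 2 of 15 (7374 to 10992 CPM against 5246 to 6058 CPM; Lum 18.1-fold, Dcn 11.1-fold, Postn 4.05-fold and Meis1 1.64-fold higher). Mesangial genes, which include Pdgfrb, were higher in 5 and lower in 2 of 9 (1542 to 1941 CPM against 1098 to 1262 CPM). Endothelial genes went the other way, with 3 higher and 9 lower of 15 (208 to 374 CPM against 294 to 540 CPM; Cldn5 at log2 -1.52, Flt1 -1.24, Egfl7 -0.84 and Sox18 -0.55). Of 10 nephron progenitor genes, 0 were higher and 9 lower (724 to 986 CPM against 743 to 1493 CPM). Of 8 Schwann and neural crest genes 3 were tested, with 1 higher and 1 lower (14.3 to 21.6 CPM against 9.51 to 15.9 CPM), and the defining genes Sox10 and Foxd3 had at most 2 counts in a library. Of 9 adrenal cortex genes, relevant because Akr1b7 is also made there, 4 were tested, with 0 higher and 1 lower (91.3 to 102 CPM against 103 to 129 CPM). Of this list, Cyp11a1, Cyp21a1, Cyp11b1 and Hsd3b1 had at most 3 counts in a library. The others had more, with at most 6 for Nr5a1, 15 for Star, 186 for Mc2r, 484 for Fdx1 and 869 for Scarb1. An adrenal source of Akr1b7 was not tested. The part of the macrophage, smooth muscle, stromal, mesangial, endothelial and progenitor genes in the members' differences was not tested.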

How the data were processed

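RNA was captured by poly(A), tagmented and sequenced from sorted cells of cultured fetal kidneys. The authors deposited 1 table that holds, for each gene and library, an estimated count and a CPM. Per the submitters' processing notes, tools included fastp 0.24.0, STAR 2.7.11 and featureCounts of Subread 2.1.1, with build GRCm39; the sources used here do not give their settings, the annotation or whether strand was used. Between 22.1 and 27.4% of a library's nonzero estimated counts were fractional, so reads were shared between genes; in the authors' counts Mcam, Pdgfrb, Kcnj8 and Abcc9 had fractions in 11, 10, 10 and 9 of 18 libraries and Ren1 and Rgs5 in 0. The deposited CPM values equal the count over the library's total, scaled by a constant.

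Counts were rounded to whole numbers, 92 ERCC spike-ins left out, and genes kept by filterByExpr (minimum count 10, minimum total 15). One edgeR 4.0.16 quasi-likelihood model (TMM, R 4.3.3) with a mean for each of the 6 groups was fitted to all 18 libraries (12 residual degrees of freedom). The 13 comparisons were each adjusted by Benjamini-Hochberg over 16544 genes, and the fit was tested on simulated data. Standard errors are the log2 fold change over the square root of F. Replicates are separate litters. Per the labels a replicate number marks a litter, so numbers pair samples: deviations from group means correlated at 0.23 to 0.619 (45 pairs) within litters and -0.80 to 0.298 (108 pairs) between them. The block was an alternative, with DESeq2 1.42.0, its size factors, no filter, only the libraries compared, and leaving out each litter or library. No 2 libraries of a group agreed within sampling noise.

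The members and the gene lists were chosen with earlier results of these data known. All members are named. Of lists of up to 10 genes every tested gene could be named, and of longer lists the 4 with the smallest p in the averaged comparison; exceptions are marked, and some listed genes are counted but not reported here by name. For each member the genes of highest r were taken, leaving out predicted genes and pseudogenes, and the first of 3 is given.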

Additional observations from a re-analysis of the deposited data

How the results depend on the processing

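For the 4 comparisons of positive against negative, the count of called genes stayed within 1.5 times under 50 of the 67 settings tried and not under the other 17. The other 9 comparisons had 0 calls, also under each of their 144 settings, which says nothing of stability. With litter as a replicate block the counts rose to 3848 (scramble-shRNA), 4019 (Mylk-shRNA) and 3369 (Rock1/2-shRNA), and with only the libraries compared Mylk-shRNA had 1303. Leaving out a litter or library gave 2766 to 6334 calls for the average, 448 to 2776 for scramble-shRNA, 580 to 2944 for Mylk-shRNA and 497 to 2013 for Rock1/2-shRNA; fewer samples were fitted. Leaving out litters 1 and 2 gave the lowest counts, 2805 and 2766 for the average; the log2 ratio of Kcnj8 to Abcc9 was 0.441 to 0.667 without a litter, an alternative added after seeing the data. Under the block, the member calls that changed were those given above for Cspg4, Kcnj8 and Abcc9. Of the member values, 48 of 838 changed sign, and none of them was called before or after. Rgs5 turned in the average to -0.00354 with no filter and -0.00528 by DESeq2 (-0.109 to 0.196 on leaving out samples), with scramble-shRNA to -0.0105 with no filter (-0.139 to 0.19), and with Mylk-shRNA (-0.0179 to 0.509). Mcam ran from -0.092 to 0.264 with Mylk-shRNA and -0.021 to 0.314 with Rock1/2-shRNA. Between vectors, Ren1 ran from -0.693 to 0.213 (Rock1/2-shRNA) and in Mylk-shRNA against Rock1/2-shRNA from -0.736 to 0.47 in the positive fraction, and from -0.151 to 0.92 (Mylk-shRNA) and -1.07 to 0.215 (Mylk-shRNA against Rock1/2-shRNA) in the negative. Pdgfrb in the negative fraction ran from -0.00244 to 0.204 (Mylk-shRNA) and -0.0541 to 0.1 (Rock1/2-shRNA), and Cspg4, Mylk-shRNA against Rock1/2-shRNA, from -0.0242 to 0.331. The difference of the fraction effect ran from -0.155 to 0.17 for Pdgfrb (Rock1/2-shRNA minus scramble-shRNA), from -0.00124 to 0.358 for Rgs5 (Mylk-shRNA minus scramble-shRNA) and from -0.263 to 0.0837 for Kcnj8 (Mylk-shRNA minus Rock1/2-shRNA). The cause of these changes was not tested. Depth limits Ren1 most, with 1 to 37 counts in a library.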
